A study of Sus scrofa with 12 samples.

Results

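The genes that make, carry, break down or sense retinoic acid were examined in pig ovaries. They were ALDH1A1, ALDH1A2, ALDH1A3, CRABP1, CRABP2, RBP4, CYP26B1, RARA and RARB, chosen by symbol with earlier results of these data known. All 9 symbols stood on a single row each of the deposited table of 29150 loci, and 5 of them passed the filter of a mean FPKM of at least 0.5. FPKM scales a read count by gene length and by library depth, so it allows levels of different genes to be compared. Each of 12 libraries was made from the whole left ovary of 1 gilt, a young female pig of New French Yorkshire stock, and each group had 6. The ES gilts had 2 consecutive estrus cycles on record and were killed in the third estrus. The NES gilts were full sisters from the same litters, in which no estrus was seen. Estrus was watched for from 165 days of age in both groups, and the ages at slaughter were not given. No treatment, allele or transgene is named for either group. In whole ovaries, fewer cells of a type and less RNA per cell cannot be told apart in any value below.

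Retinoic acid is made from vitamin A. Retinol travels in blood on RBP4, is oxidised to retinaldehyde by retinol dehydrogenases, and then irreversibly to retinoic acid by the ALDH1A enzymes. CRABP1 and CRABP2 bind retinoic acid inside the cell, CYP26 enzymes degrade it, and the nuclear receptors RARA, RARB and RARG carry its signal to genes as partners of the RXR receptors. In the ovary, retinoic acid is known for its part in the entry of fetal germ cells into meiosis, and follicles of the adult ovary also make it.

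Libraries held 58140547 to 68961955 counts. Levels of the 9 members are mainly compared between groups as CPM values, which are counts scaled to a common library size. Sums, shares and most other genes are given in FPKM. The FPKM values do not carry the scaling factors of the test, so their gap and the log2 difference can differ in sign. RXRA and RARRES1 below are cases. The test was the quasi-likelihood test of edgeR. Its p-values were adjusted by the Benjamini-Hochberg method over the 20421 loci past the filter, and a locus was called under 0.05. It called 193 loci (0.945%), 31 higher (0.152%) and 162 lower (0.793%) in ES, while 16.3% of loci had an unadjusted p under 0.05. Of the lists for granulosa cells, theca, luteal cells, stroma and oocytes, 9 of 10, 7 of 7, 7 of 8, 6 of 7 and 7 of 7 markers had a row (AMH, HSD3B1 and COL3A1 were not matched), and no marker with a row was at 0 throughout. OXT, a luteal marker, and FIGLA, an oocyte marker, were at 0 in some libraries. In ES3 the summed FPKM of 5 macrophage markers was 329, against 4.44 to 13.1 in the other 11 libraries, and its 9 granulosa markers summed to 51.7, the lowest of all 12. In ES6 the 5 markers of ductal or ciliated epithelium summed to 59.6, against 0.613 to 3.33 elsewhere. ES1 had the highest sum of the 7 luteal markers, 376.

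None of the 5 members tested was called by edgeR, 1 of 5 (ALDH1A3) had an unadjusted p under 0.05, and DESeq2, which called 5.17% of loci, called 1 of 5, also ALDH1A3. Both ALDH1A3 and ALDH1A1 passed the filter only through the ES libraries, with means of 0.280 and 0.303 FPKM in NES. With no filter, edgeR called 0.0961% of 29150 loci and 0 of 9 members, and 2 of 9 (ALDH1A3 and CRABP1) had an unadjusted p under 0.05, a p held by 14.9% of loci. The synthesising enzyme ALDH1A3 and the carrier CRABP1 had by far the widest gap between group means, 10.0-fold and 16.8-fold higher in ES on the CPM scale, and in each of them 5 of 6 ES libraries lay above every NES library. That pattern held for 2.11% of all loci in the table. The receptors RARA and RARB lay close together in the 2 groups, with means 0.940 and 0.849 times as high in ES. No member had groups that did not overlap, a separation found in 1.42% of the loci tested.

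**Figure D1:**
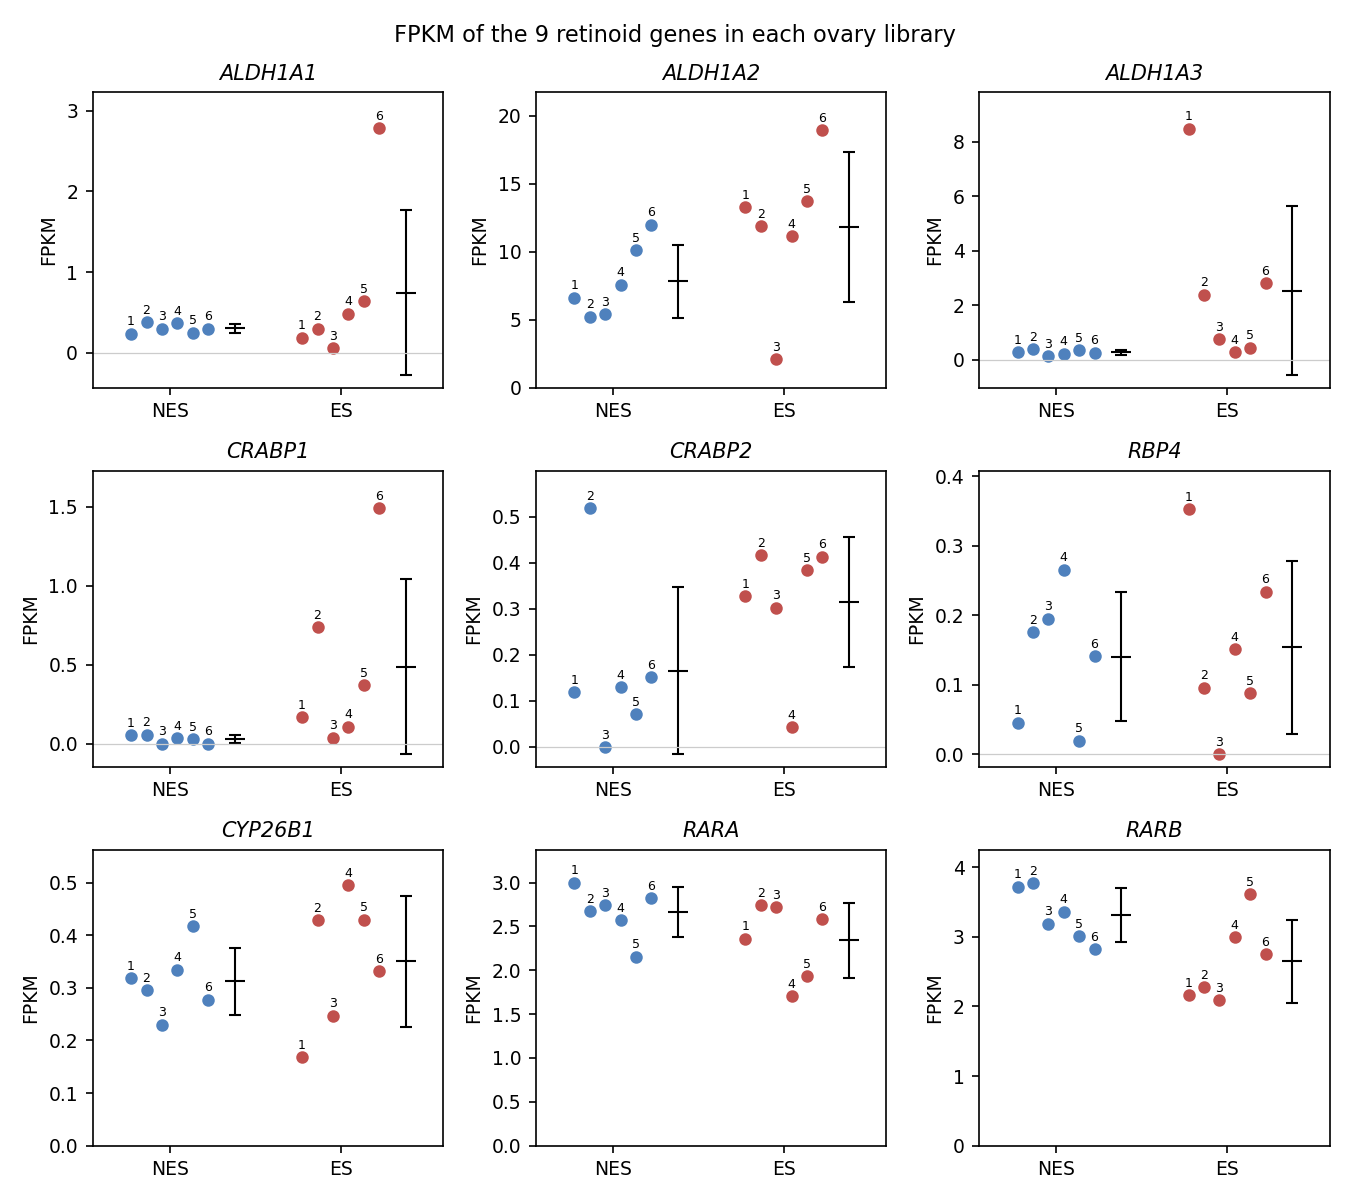
FPKM (vertical axes, scaled per gene and including 0) of each of the 9 genes in 6 NES libraries (blue) and 6 ES libraries (red). Small numbers are the replicate numbers, and the bar beside each group is the mean with its SD. ALDH1A1, ALDH1A3 and CRABP1 lay low on these axes in NES and spread widely in ES, with ES6, ES1 and ES6 at the top. Their SDs in NES were 19.0%, 33.6% and 87.0% of the mean FPKM. RARA and RARB stayed between 1.70 and 3.77 FPKM in all 12 libraries.

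By level, ALDH1A2 came first of the 9 with a mean of 9.82 ± 4.64 FPKM (SD over all 12 libraries) and exceeded RARB, the next, in 11 of 12. RARB at 2.98 ± 0.588 and RARA at 2.50 ± 0.388 FPKM did not differ beyond their spread, RARB being the higher in 8 of 12. ALDH1A3 followed at 1.41 ± 2.40 and ALDH1A1 at 0.523 ± 0.728 FPKM, an order seen in 7 of 12 libraries. The lowest were CYP26B1 at 0.331 ± 0.096, CRABP1 at 0.258 ± 0.443, CRABP2 at 0.240 ± 0.173 and RBP4 at 0.147 ± 0.105 FPKM, each within the spread of its neighbour. In the NES ovaries alone the bottom of the list was CRABP1, at 0.0293 ± 0.0255 FPKM (n = 6), whereas in ES it stood above CYP26B1 in mean.

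ALDH1A3 (MSTRG.1138, Sscrofa11.1 chromosome 1, 139450945 to 139492015, plus strand, protein coding) encodes a retinaldehyde dehydrogenase of epithelia and sensory organs. Its level in NES ran from 0.740 through a median of 1.54 to 2.13 CPM, and in ES from 1.75 through 9.24 to 54.9 CPM. ES1 was highest at 54.9 CPM, ES6 and ES2 had 16.2 and 14.0, ES3 had 4.48, ES5 had 2.53, and only ES4 lay inside the NES range. Mean CPM was 15.6 ± 20.2 for ES and 1.56 ± 0.510 for NES (SD over 6 libraries). The log2 difference was 3.32 ± 0.76 (SE; 95% interval 1.67 to 4.97), with an unadjusted p of 0.000806 and an edgeR adjusted p of 0.0609. In the fit with no filter, which does not depend on the high ES values that took ALDH1A3 past the filter, the edgeR adjusted p was 0.0813. With the filter, which was set on all 12 libraries, the log2 difference stood at 2.31 without ES1 (edgeR adjusted p = 0.0726). Permuting the group labels exactly (two-sided, on log2 of CPM + 0.5) gave p = 0.00649 unadjusted, where 0.00216 is the smallest value the design allows. ALDH1A3 was called in 2 of 26 alternative fits, DESeq2 (adjusted p = 6.70e-05) and edgeR with no scaling factors (adjusted p = 0.0474). With no filter the DESeq2 call stood (adjusted p = 8.42e-05), whereas edgeR with no scaling factors gave an adjusted p of 0.0636.

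The ES libraries stood in the same order by ALDH1A3 and by the summed FPKM of luteal markers, but the NES libraries did not. The 7 luteal markers measured all had a higher mean in ES, and 6 of 7 did without ES1 or without ES6. They include STAR and CYP11A1, which were detected in every library. Their summed FPKM was 376 in ES1 and 157 in ES6. It was 78.0 in ES2, 77.8 in ES3, 70.0 in ES5 and 38.6 in ES4, the ES library lowest in ALDH1A3, against 23.7 to 44.5 in NES. In NES, NES2 was highest in ALDH1A3, at 2.13 CPM, with a luteal sum of 29.3 FPKM. NES6 had the highest luteal sum of that group, 44.5 FPKM, and 1.46 CPM of ALDH1A3. Among ES libraries, CYP11A1, HSD17B7 and RGCC were highest in ES1, STAR, LHCGR and OXT in ES6, and PTGFR in ES3. Other sums were also highest in ES1 and next in ES6 among ES libraries: theca (298 and 268 FPKM), granulosa (1469 and 1199), stroma (1329 and 1250) and smooth muscle (186 and 176). Each sum, the luteal one included, is weighted towards its most abundant genes, so it need not follow the other markers of its list. Mean FPKM in ES was 848 for COL1A1 (stroma), 491 for INHA (granulosa), 99.4 for CYP17A1 (theca) and 76.8 for CYP11A1 (luteal). A higher mean in ES was found for 2 of 7 theca, 4 of 9 granulosa, 3 of 6 stroma and 6 of 6 smooth muscle markers. Called lower in ES by edgeR were 3 of 7 theca markers (HHIP, GLI1 and PTCH1) and 1 of 9 granulosa markers (IHH). Of all loci tested, 0.793% were called lower. The part of any of these tissues in the ALDH1A3 difference was not tested.

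ALDH1A2 (MSTRG.856, chromosome 1, 113825321 to 114043106, plus strand) encodes the enzyme that makes most retinoic acid in the embryo, and it is a known product of mesothelium and stroma. It was the most abundant of the 3 ALDH1A genes in 12 of 12 libraries. NES ovaries held 80.8 to 191 CPM with a median of 114, and ES ovaries 35.2 to 316 CPM with a median of 213. ES3 alone was far below, at 35.2 CPM, and the next lowest ES library had 189.6 CPM, so that 4 ES libraries lay above and 1 below every NES library. The means were 203 ± 93.6 CPM in ES and 126 ± 44.7 CPM in NES, a log2 difference of 0.69 ± 0.39 (edgeR adjusted p = 0.412). Without ES3 it became 0.90 (unadjusted p = 0.0021, edgeR adjusted p = 0.0902), and without ES3 and ES6 together 0.78 (edgeR adjusted p = 0.163). Without ES6 alone it fell to 0.51 (edgeR adjusted p = 0.568). The exact two-sided permutation test on all 12 libraries gave p = 0.359 unadjusted. The locus starts well before the RefSeq gene (113932722 to 114037059) and overlaps AQP9 on the opposite strand. AQP9 averaged 63.2 counts a library, far fewer than any ALDH1A2 count, the lowest of which was 2233.

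ALDH1A1 (MSTRG.1775, chromosome 1, 226161373 to 226217339, minus strand), a retinaldehyde dehydrogenase also used as a marker of stem-like epithelial cells, passed the filter through ES6. NES libraries were tightly grouped, at 2.09 to 3.42 CPM with a median of 2.74. ES libraries ran from 0.584 CPM in ES3 through a median of 3.78 to 26.4 CPM in ES6, 4.43 times the next highest. The ES values thus lay on both sides of the NES range, 3 above and 2 below it. The log2 difference of 1.35 ± 0.68 (edgeR adjusted p = 0.346) fell to 0.21 without ES6 (edgeR adjusted p = 0.855).

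ES6 was also the library with the most epithelial and mesothelial RNA. The 5 epithelial markers with a row summed to 59.6 FPKM there (PAX8 and OVGP1, also listed, were not matched). All 5 had a higher mean in ES, but 3 of 5 did without ES6. FOXJ1, the regulator of motile cilia, reached 121 CPM in ES6 and was at 0 in some libraries, and its log2 difference went from 6.91 to -1.08 without ES6. The 6 mesothelial markers (UPK3B among them) summed to 9.92 FPKM in ES6, against 1.01 to 3.44 in the other ES libraries and 1.23 to 2.00 in NES. The mesothelial markers LRRN4 and CALB2 were at 0 in some libraries, and MSLN and KRT19 of that list were not matched. ES6 was at the same time the highest library in ALDH1A2 and CRABP1. The part of epithelium and mesothelium in these values was not tested.

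**Figure D2:**
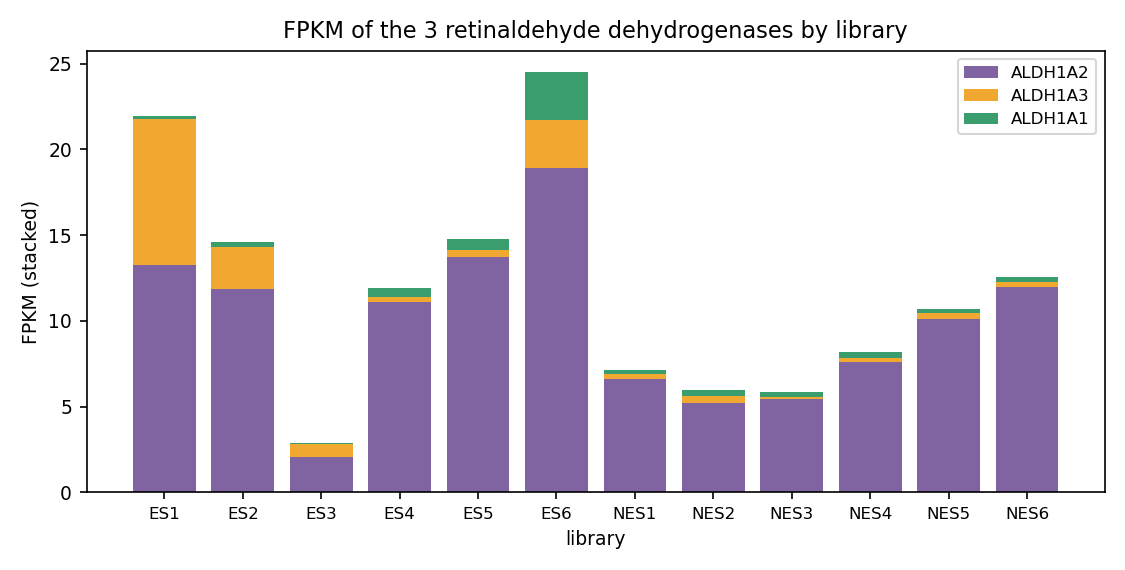
Stacked FPKM of ALDH1A2 (purple), ALDH1A3 (orange) and ALDH1A1 (green) for each of 6 ES and 6 NES libraries. ALDH1A2 fills most of every bar, the sums run from 2.90 in ES3 to 24.5 FPKM in ES6, and the ALDH1A3 part reaches 38.7% in ES1.

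The makeup of the ALDH1A RNA differed more between ES libraries than between NES libraries. ALDH1A2 held 87.1 to 95.5% of the FPKM of the 3 genes in NES and 60.5 to 93.5% in ES. ALDH1A3 held 2.10 to 6.65% in NES, and in ES 38.7% in ES1, 26.4% in ES3, 16.5% in ES2, 11.5% in ES6, 3.02% in ES5 and 2.46% in ES4. ALDH1A1 held 11.4% in ES6 and 0.842 to 6.25% in the other 11 libraries. The sum of the 3 was 15.1 ± 7.68 FPKM in ES and 8.40 ± 2.70 FPKM in NES, with ES3 the lowest of all 12 at 2.90. These shares are descriptions and were not tested.

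The intracellular carriers were scarce. CRABP1 (MSTRG.20958, chromosome 7, 47601991 to 47609624, minus strand), the retinoic acid binding protein linked to its turnover, had 0 to 11 counts in NES libraries and 7 to 257 in ES libraries. On the CPM scale NES ran from 0 in NES3 and NES6 (which allows up to 0.0505 and 0.0477 CPM, for counting error only) through a median of 0.0869 to 0.166. ES ran from 0.110 in ES3 through 0.768 to 4.08 in ES6, and only ES3 lay within the NES range. With a mean of 0.258 FPKM the gene did not pass the filter. In the edgeR fit with no filter its log2 difference was 4.01 ± 0.98 (95% interval 1.90 to 6.13, adjusted p = 0.0954). Without ES6 it was 3.28 (edgeR adjusted p = 0.153), the exact two-sided permutation test gave p = 0.00649 unadjusted, and DESeq2 with no filter, which called 3.99% of loci, called it (adjusted p = 6.60e-04). The order of ES libraries in CRABP1 was ES6, ES2 (2.06 CPM), ES5 (1.00), ES1 (0.536), ES4 (0.323) and ES3. In the sum of mesothelial markers, ES6 again came first, ES2 and ES5 followed with 3.44 FPKM each, ES4 had 3.18, ES1 had 1.16 and ES3 was last, so ES1 and ES4 stood in the opposite order. The NES libraries did not share an order. NES6 had the highest mesothelial sum of that group, 2.00 FPKM, with CRABP1 at 0. NES2 had the most CRABP1 of that group, 0.166 CPM, with a sum of 1.48 FPKM. The part of mesothelium in the CRABP1 difference was not tested.

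CRABP2 (ENSSSCG00000006472, chromosome 4, 93388092 to 93394155, plus strand), which hands retinoic acid to the receptors, had 4 to 33 counts in ES and 0 to 40 in NES. Its CPM spanned 0.068 (ES4) to 0.540 with a median of 0.471 in ES, and 0 (NES3) to 0.605 (NES2) with a median of 0.153 in NES. With ES4 and NES2 set aside, a choice made after seeing the data, 5 NES libraries lay at or below 0.191 CPM and 5 ES libraries at or above 0.395. The log2 difference in the fit with no filter was 1.03 ± 0.74 (edgeR adjusted p = 0.525). With single libraries left out it ran from 0.78 (without NES3) to 1.78 (without NES2). CRABP2 was called in 0 of 24 alternative fits. RBP4 (ENSSSCG00000010479, chromosome 14, 105036961 to 105044712, minus strand), the plasma carrier of retinol that is made mostly in liver, was at 0 to 64 counts in ES and 4 to 45 in NES. Its means of 0.450 ± 0.387 and 0.387 ± 0.253 CPM gave a log2 difference of 0.21 ± 0.80 (95% interval -1.52 to 1.93, edgeR adjusted p = 0.933), which turned to -0.30 without ES1.

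CYP26B1 (ENSSSCG00000008311, chromosome 3, 70572970 to 70593461, plus strand), the retinoic acid hydroxylase of the gonad, was low in both groups. It ran from 1.33 to 3.52 CPM in ES (median 2.64) and from 1.56 to 2.91 CPM in NES (median 2.01), and the ranges overlapped. The log2 difference was 0.23 ± 0.25 (95% interval -0.32 to 0.77, edgeR with no filter, adjusted p = 0.710). ES1, the library with most ALDH1A3, had the least CYP26B1, 1.33 CPM. Summed ALDH1A FPKM was 130-fold that of CYP26B1 in ES1, 74.0-fold in ES6 and 11.7 to 34.4-fold in the other ES libraries, against 20.2 to 45.2-fold in NES.

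RARA (MSTRG.4173, chromosome 12, 22045270 to 22073245, minus strand), the widely expressed receptor, spanned 17.3 to 27.7 CPM in ES (median 26.1) and 21.3 to 28.2 CPM in NES (median 25.9). Its log2 difference was -0.09 ± 0.14 (95% interval -0.38 to 0.21, edgeR adjusted p = 0.793). The locus stops short of the RefSeq gene's start on that strand, at 22085759. RARB (MSTRG.5047, chromosome 13, 12336370 to 12508121, plus strand), a receptor gene that retinoic acid itself induces, spanned 16.1 to 26.9 CPM in ES (median 19.7) and 20.5 to 26.6 CPM in NES (median 24.4). Its log2 difference was -0.24 ± 0.14 (95% interval -0.53 to 0.06, edgeR adjusted p = 0.412). As folds, the intervals span 0.766 to 1.15 times the NES level for RARA and 0.694 to 1.04 times for RARB. RARB ends at 12508121, just inside an antisense TOP2B locus that starts at 12508063. Reads of the 2 in that short overlap may not have been told apart if strand was not used in counting.

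The balance of the 2 receptors varied among ES ovaries. In ES4 and ES5 the FPKM of RARB was 1.76 and 1.86 times that of RARA, in the other 4 ES libraries 0.767 to 1.06 times, and in NES 0.999 to 1.41 times. ES4 and ES5 had the least RARA of all 12 libraries, 17.3 and 19.0 CPM, and the most RARB of the ES group. The mean ratio was 1.20 ± 0.485 in ES and 1.25 ± 0.155 in NES.

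**Figure D3:**
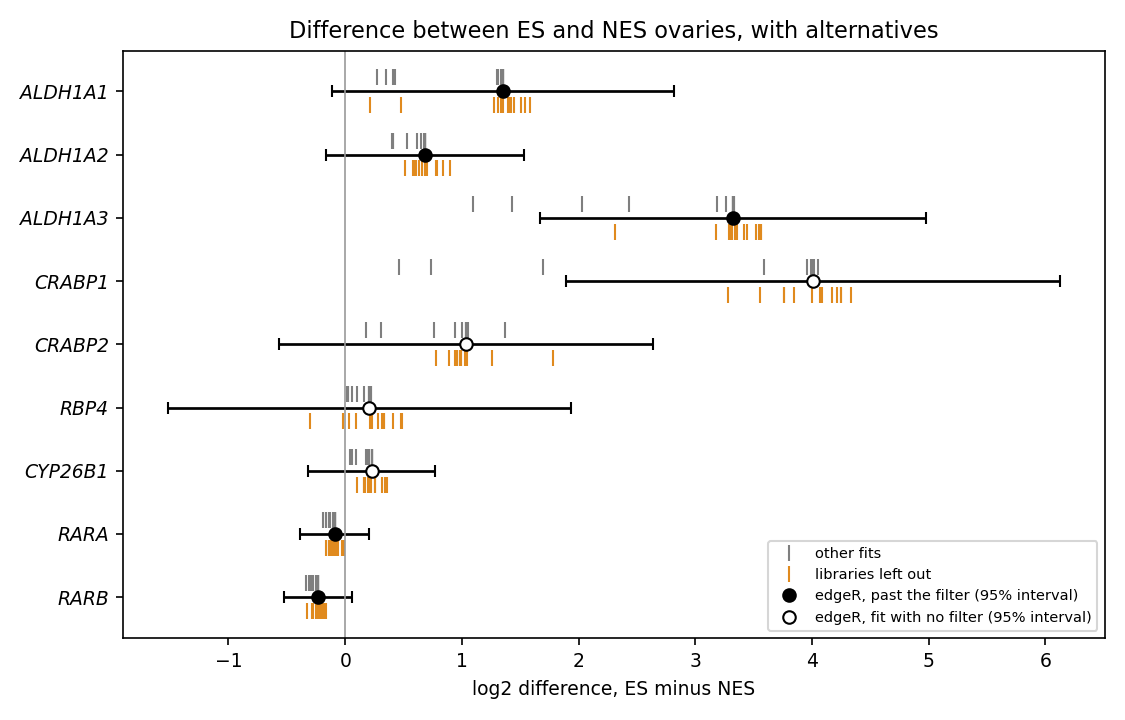
Log2 difference (ES minus NES, horizontal axis) of each gene with its 95% interval from edgeR; open circles are genes taken from the fit with no filter. Grey ticks are other fits and orange ticks fits with libraries left out. The intervals of ALDH1A3 and CRABP1 lie above 0, but neither passed the adjusted threshold, and the lowest ticks of both, 1.09 and 0.46, come from limma with a pseudocount of 1.

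Spread within the groups was compared with and without the libraries that stood apart. The SD relative to the mean CPM was larger in ES than in NES for 8 of 9 members (5 of the 5 past the filter), CRABP2 being the exception, and this also held for 74.6% of all tested loci. Without ES1 alone the relative SD was still larger in ES for 8 of 9 (68.0% of loci), and without ES6 alone for 8 of 9 (74.1%). Without ES3 alone it was larger for 7 of 9 (66.3%). ALDH1A2 then had an SD of 21.3% of the mean in ES against 35.5% in NES. Without ES1, ES3 and ES6 it was larger for 4 of 9 members and for 49.9% of loci, a choice made after seeing the data. Leaving out libraries because they are extreme tends to lower an SD in itself, so that count does not show where the spread came from. For ALDH1A1 the SD was 136% of the mean in ES and 18.7% in NES, and for ALDH1A3 it was 129% and 32.7%. RARA had 19.1% and 9.29%, and RARB 19.7% and 9.96%.

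**Figure D4:**
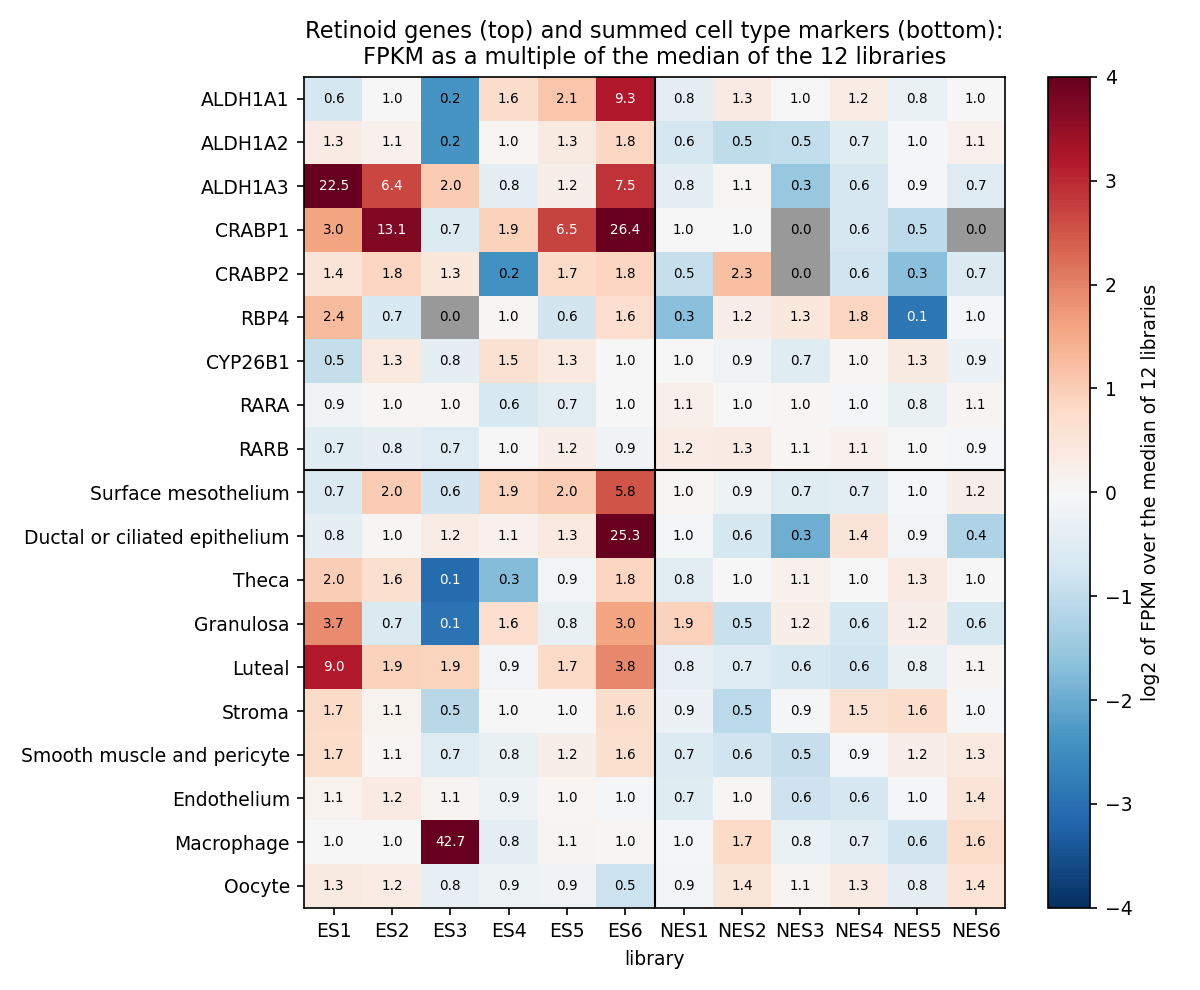
FPKM of each retinoid gene (rows above the line) and summed FPKM of each cell type marker list (rows below it) in each library (columns), as a multiple of the median of the 12 libraries. Colour shows the log2 of the multiple, and grey marks a gene listed at 0. Each sum is weighted towards its most abundant genes. ALDH1A3 peaks at 22.5 and the luteal sum at 9.0 in ES1, ALDH1A1 at 9.3 and the epithelial sum at 25.3 in ES6, and ES3 has the lowest ALDH1A1 and ALDH1A2 beside a macrophage sum at 42.7.

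Likeness of pattern was ranked by Spearman's rho of CPM over the 12 libraries, for the 4 members with a mean FPKM of at least 1. These rhos describe shared libraries and groups and carry no test. Closest to ALDH1A2 were ADAMTSL1 (rho 0.98), GRK5 (0.97) and SNTB2 (0.95). For ALDH1A3 they were ABHD4 and a short locus named NRP2 (0.90 each) and PDE4D (0.90), a cAMP phosphodiesterase. RARA came nearest to OLFML2A (0.87), BCL6B (0.86) and SLC2A4RG (0.85), and RARB to the Hippo kinase gene LATS1 (0.89), TMEM98 (0.88) and FUNDC1 (0.88).

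Of 44 other genes listed for retinoid supply, conversion, transport and signalling, 37 had a row, 25 were tested and 0 were called by edgeR. Of these 25, 5 had an unadjusted p under 0.05, all higher in ES, beside 16.3% of all loci. DESeq2, which called 5.17% of loci, called RETSAT alone, and with no filter (3.99% of loci) also RDH12 (adjusted p = 0.0306). Their median log2 difference was 0.15, beside 0.04 over all loci tested.

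The retinol dehydrogenases and reductases accounted for most of the small p-values. Of 10 tested, 8 had positive differences, with a median of 0.39, and 4 had an unadjusted p under 0.05, beside 16.3% of all loci. RETSAT, which saturates retinol, had 10.5 ± 1.86 FPKM in ES and 8.34 ± 1.12 in NES, and a log2 difference of 0.42 ± 0.13 (edgeR adjusted p = 0.128; 5 of 6 ES libraries above every NES library in CPM, as in 2.5% of loci tested). RDH12, a retinaldehyde reductase known from photoreceptors, had 3.28 ± 3.13 and 0.711 ± 0.566 FPKM (log2 2.28 ± 0.80, edgeR adjusted p = 0.195). It ranged from 0.09 FPKM in ES3 to 8.89 in ES6, and its difference was 1.69 without ES6. RDH11, the most abundant at 22.6 ± 13.0 and 12.4 ± 3.15 FPKM, had a log2 difference of 0.97 ± 0.35 (edgeR adjusted p = 0.203). RDH14, named after its value was seen, had 0.58 ± 0.21 (edgeR adjusted p = 0.204). DHRS3, the reductase that returns retinaldehyde to retinol and is itself induced by retinoic acid, had 10.7 ± 2.13 and 8.98 ± 2.22 FPKM (log2 0.35 ± 0.16, edgeR adjusted p = 0.315). RDH10, the main retinol dehydrogenase of the embryo and also named after its value was seen, had 7.13 FPKM in ES1 and 1.69 to 2.72 FPKM in the other 11 libraries.

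**Figure D5:**
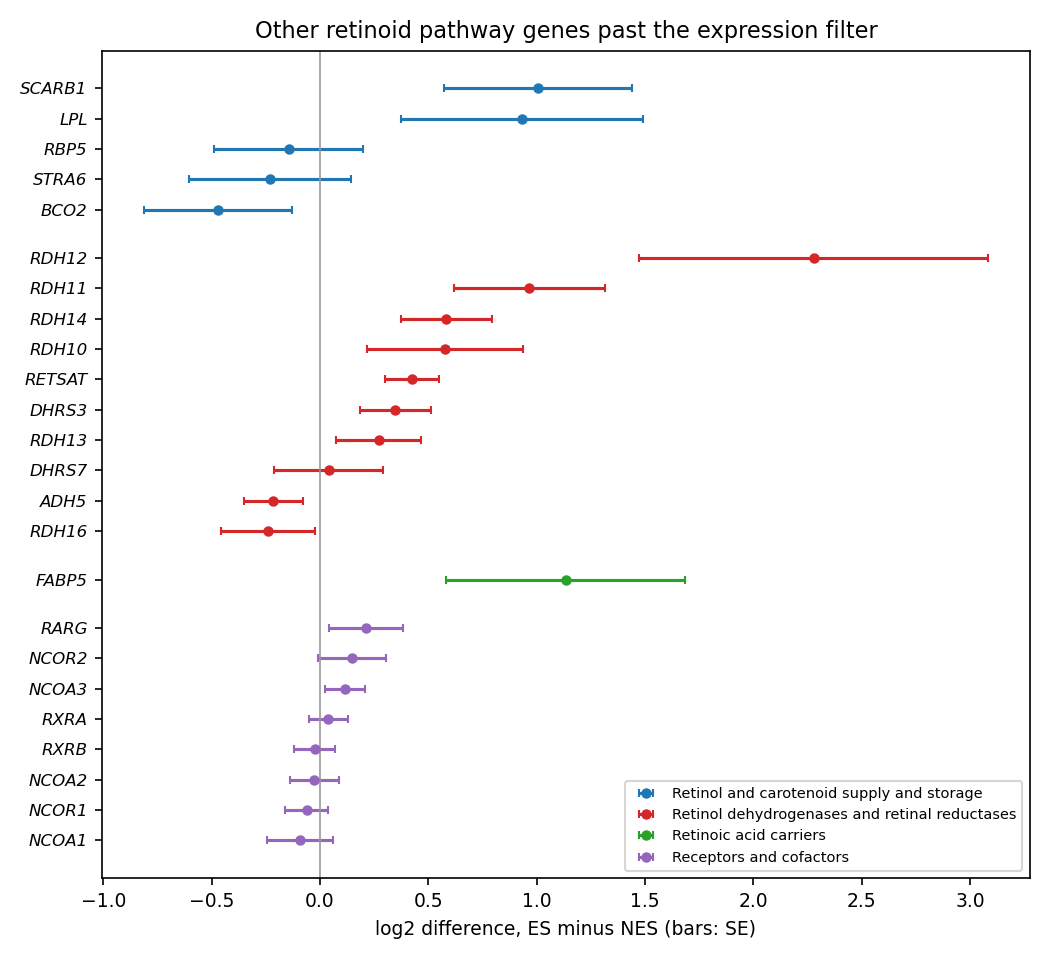
Log2 difference (ES minus NES) with its SE from edgeR for other retinoid pathway genes past the filter, coloured by role. RDH12 is the farthest from 0 at 2.28, and the receptors and cofactors lie between -0.09 and 0.21; none was called.

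Genes of retinol supply lay on both sides of 0 (3 positive and 3 negative of 6, none called by edgeR, 1 with an unadjusted p under 0.05 and 0 called by DESeq2). SCARB1, a lipoprotein receptor that also takes up carotenoids, had a log2 difference of 1.01 ± 0.43 (edgeR adjusted p = 0.274), and 0.34 without ES1, whose 36.0 FPKM compared with 4.61 to 14.3 elsewhere. STRA6, the membrane receptor for RBP4, had 2.67 ± 1.26 FPKM in ES and 3.42 ± 1.81 in NES (log2 -0.23 ± 0.37, edgeR adjusted p = 0.808). FABP5, an alternative carrier of retinoic acid, had 1.13 ± 0.55 (edgeR adjusted p = 0.331), but 0.13 without ES3, which held 11.7 FPKM against 1.13 to 2.77 in the others.

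Among receptors and cofactors 8 were tested, 4 positive and 4 negative, and none had an unadjusted p under 0.05 or was called by edgeR or DESeq2. RXRA and RXRB, the common partners of the retinoic acid receptors, averaged 8.95 ± 1.08 and 5.97 ± 0.675 FPKM in ES and 9.29 ± 0.530 and 6.46 ± 0.275 in NES (log2 0.04 ± 0.09 and -0.02 ± 0.09, edgeR adjusted p = 0.871 and 0.931). RARG had 0.21 ± 0.17 (edgeR adjusted p = 0.574) and the coactivator gene NCOA3 0.11 ± 0.09 (edgeR adjusted p = 0.578). RXRA was thus above RARA, RARB and RARG in FPKM. CYP26A1 and CYP26C1, the other hydroxylases that clear retinoic acid, averaged at most 0.063 FPKM in either group, and ALDH8A1 at most 0.009 FPKM, all below the filter.

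Of 24 genes known to respond to retinoic acid in various tissues, 16 were tested and 0 called by edgeR or by DESeq2, with 2 at an unadjusted p under 0.05, no larger a share than the 16.3% of all loci. Their median log2 difference was 0.22, with 12 positive and 4 negative. MEIS2, a homeobox gene, had 4.56 ± 1.24 FPKM in ES and 3.59 ± 0.476 in NES (log2 0.44 ± 0.17, edgeR adjusted p = 0.233). TGM2, a transglutaminase, had 40.2 ± 21.0 and 28.7 ± 5.50 FPKM (log2 0.58 ± 0.27, edgeR adjusted p = 0.304), and 0.26 without ES3, which stood at 80.8 FPKM. RARRES1, the most abundant of the list, had 251 ± 121 and 259 ± 129 FPKM, a log2 difference of 0.04 ± 0.36 (edgeR adjusted p = 0.973).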

How the data were processed

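RNA of 12 left ovaries was freed of ribosomal RNA and sequenced from stranded dUTP libraries, per the labels' protocols. The build Sscrofa11.1 and the tools HISAT2, TopHat, cutadapt and FastQC are named in the submitters' processing notes; how reads were counted, and with which strand setting or annotation, is not given in the sources used here. Per locus, the authors deposited raw counts and FPKM values, per the file headers, and 0 per-sample columns went unused. Loci were 24887 assembled (MSTRG) and 4263 Ensembl ones. For the gene lists, 1036 of 7902 loci without a symbol were named from a name table, and a symbol with several rows took the one with the highest mean count.

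The test was edgeR's quasi-likelihood test on counts with TMM factors and group as the only term, run where the mean FPKM reached 0.5. SE is the log2 difference divided by the square root of F. CPM uses the same factors, and intervals are 95%. Members below the filter come from a fit with no filter. Alternatives were limma on log2(FPKM + 0.1, 0.5 or 1), DESeq2, robust edgeR, other scaling factors, other filters, a replicate block, libraries left out, other rows for a symbol, and exact permutation.

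Every library came from its own gilt. Whether title numbers mark litters is not stated. The numbers were not used as pairs. No 2 libraries held identical counts.

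The members and lists were chosen with earlier results of these data known. Named genes were the 9 members, every called gene of the 2 other lists, in each role the 2 highest in mean FPKM and the 2 with the smallest p, and the 3 loci most alike each member whose mean FPKM reached 1. The script was tested on simulated data. Fits used DESeq2 1.42.0, limma 3.58.1 and edgeR 4.0.16 under R 4.3.3; matplotlib 3.10.9, scipy 1.17.1, numpy 2.4.6 and pandas 2.3.3 ran under Python 3.11.15. One gene of the pathway list, counted in its totals, is not reported here. No sequence was used here.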

Additional observations from a re-analysis of the deposited data

Results flagged for a closer look

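Within a group of 6 libraries, a value was set aside for a closer look when its gap to the nearest other library was a larger part of the group's range than Dixon's critical value allows. By chance about 1 in 20 groups meets this, and 18 groups were checked. ALDH1A1 in ES6, at 26.4 CPM, stood above the other ES libraries (at most 5.95 CPM). ALDH1A3 in ES1, at 54.9 CPM, stood above the rest, the next being 16.2 CPM. CRABP2 stood out in both groups: ES4 was low at 0.068 CPM, from 4 counts, and NES2 was high at 0.605 CPM, from 40 counts.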

How the results depend on the processing

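Of 234 alternative values for the 9 members, 232 kept their direction. RBP4 ran from -0.30 (without ES1) to 0.49 (without NES4) with single libraries left out, and was -0.017 without NES5. The number of members called, 0 with edgeR, was 1 with DESeq2 and 1 with no scaling factors, in both cases ALDH1A3, and 2 with DESeq2 and no filter (ALDH1A3 and CRABP1). The number of other pathway genes called was 1 with DESeq2 (RETSAT) and 2 with DESeq2 and no filter (RETSAT and RDH12), and 0 response genes were called in any alternative. Each member has a single row, so another choice of row changed nothing. The count of called loci, 193, was 28 with no filter, 337, 334 and 319 with limma (pseudocounts 0.5, 0.1 and 1), 1055 with DESeq2, 295 with upper quartile factors, 364 with no scaling factors, and 1 without ES3 and ES6 together. With single libraries left out it ran from 0 to 415, while 2629 to 3811 loci had an unadjusted p under 0.05. A replicate block (title number) left edgeR with 0 called loci, 2708 with an unadjusted p under 0.05, and 0 called members; ALDH1A3 then had a log2 difference of 2.43 and ALDH1A1 of 0.43, and no member's call changed. Deviations of same-numbered libraries from their group means correlated at 0.29, 0.05, -0.07, 0.03, 0.25 and -0.001, and ES1 and ES5 alone correlated best with their own number. Such correlations cannot decide whether the numbers mark litters. The numbers were not used as pairs because the labels do not say that they do. The limma fit with pseudocount 0.1 moved the median of all loci by -0.11, and limma values of low genes are shrunk by the pseudocount, with CRABP1 at 0.46 and ALDH1A3 at 1.09 with pseudocount 1. Depth limits CRABP1, CRABP2 and RBP4, with as few as 0 counts in a library.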
